A study of Homo sapiens with 9 samples.

Results

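The genes of the desmosome were examined in RNA-seq libraries of LNCaP:C4-2, a castration-resistant derivative of the prostate cancer line LNCaP, expressing short hairpin RNAs (shRNAs). The 10 genes were DSC2, DSC3, DSG2 and DSG3 (desmosomal cadherins), DSP (desmoplakin), JUP (plakoglobin), PKP1, PKP2 and PKP3 (plakophilins) and PERP. They were taken by symbol from the 60675 genes of the count files, of which 19278 passed the filter on low counts, and 8 of the 10 were among those tested. The set was chosen by the measured values of DSC3, which has one of the largest differences between the shRNA guides, so its values are given here as a description and without a p-value.

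The 9 libraries fall into 3 groups of 3, namely shScramble (a hairpin that targets no gene), shMETTL3 guide 2 and shMETTL3 guide 1, which target METTL3, the catalytic subunit of the RNA m6A methyltransferase complex. All groups carried a lentiviral, doxycycline-inducible hairpin in a pLKO puromycin vector and were selected in puromycin (1 μg/ml) for 3 weeks. The paper refers to the selected cells as stable clones, and how many clones each group holds is not stated. An effect of a hairpin and a difference between the selected lines cannot be told apart here. All groups were grown in charcoal-stripped serum with, by the protocol, 6 days of doxycycline (1 μg/ml), although a vehicle is named in the titles. The labels do not say whether the libraries of a group came from separate cultures, so p-values measure only the spread between these libraries. Each library held between 21899501 and 30897639 counts. Fewer genes were detected with guide 2 (24884 to 26505) than in shScramble (28459 to 29586) or the libraries labelled guide 1 (29193 to 29628).

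Desmosomes are spot-like junctions that hold neighbouring epithelial cells together. Desmosomal cadherins (desmocollins, DSC, and desmogleins, DSG) of adjacent cells bind each other outside the membrane, and inside it their tails bind plakoglobin and the plakophilins, which in turn hold desmoplakin, the plakin that anchors the keratin filaments. DSC2, DSG2 and PKP2 are the forms of simple epithelia, whereas DSG3, DSC3 and PKP1 are best known from basal and stratified epithelium.

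The hairpin target sites are shown because the comparison rests on them, with the bases found in METTL3 transcripts in lower case, 5′ to 3′.
guide 1: cgtcagtatcttgggcaagtt
guide 2: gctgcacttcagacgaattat
The guide 1 site lies in exon 6 of 11 of METTL3 (GRCh38, chr14:21500633-21500653, minus strand). The guide 2 site spans the junction of exon 4 (chr14:21501728-21501739, 12 bases) and exon 5 (chr14:21501121-21501129, 9 bases). Each site matched 5 annotated METTL3 transcripts, and neither matched any of 69 annotated transcripts of the desmosome genes over its whole length.

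In shScramble METTL3 had 922, 1010 and 753 counts, followed by 382, 415 and 349 with guide 2, and 837, 837 and 886 in the libraries labelled guide 1. Every guide 2 library was below every shScramble library, and METTL3 fell by 0.95 on the log2 scale with guide 2 (SE 0.0687, edgeR adjusted p = 2.97e-12). The log2 fold change was -0.08 in the libraries labelled guide 1 (SE 0.0633, edgeR adjusted p = 0.251), so a fall of METTL3 RNA was not detected there. The authors prioritised the hairpin at the guide 2 site, which gave the best METTL3 depletion of those they tested. Whether the label or the hairpin accounts for the guide 1 value was not tested. These libraries are referred to by their label throughout. Opposite-strand TOX4 shares 6.58% of the METTL3 exon bases, and the strand setting of the counting is not given.

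Levels are given on a pair of scales. CPM, the counts of a gene relative to the TMM-scaled library size, compares 1 gene between libraries, and TPM, which also divides the counts by exon length, compares different genes. A gene was called when its adjusted p was under 0.05 and its fold change at least 1.5. Over all tested genes, 29.3% were called with guide 2 against shScramble (8.85% raised and 20.4% lowered), and 37.7% were called in the libraries labelled guide 1 (21.2% raised and 16.5% lowered). Both comparisons share the shScramble libraries. With guide 2, 3 of the 8 tested desmosome genes were called, DSC3 and DSP lowered and JUP raised. In the libraries labelled guide 1, 5 of 8 were called, DSC2, DSC3 and DSG2 raised and JUP and PKP3 lowered. Without DSC3, these counts were 2 of 7 and 4 of 7. At an adjusted p under 0.05 alone, 5 of 8 passed in each comparison, where 61.8% and 68.4% of all tested genes did. Over all tested genes the median log2 value was -0.04 with guide 2 and -0.02 in the libraries labelled guide 1. In bulk RNA, fewer cells expressing a gene and less RNA per cell cannot be told apart.

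**Figure D1:**
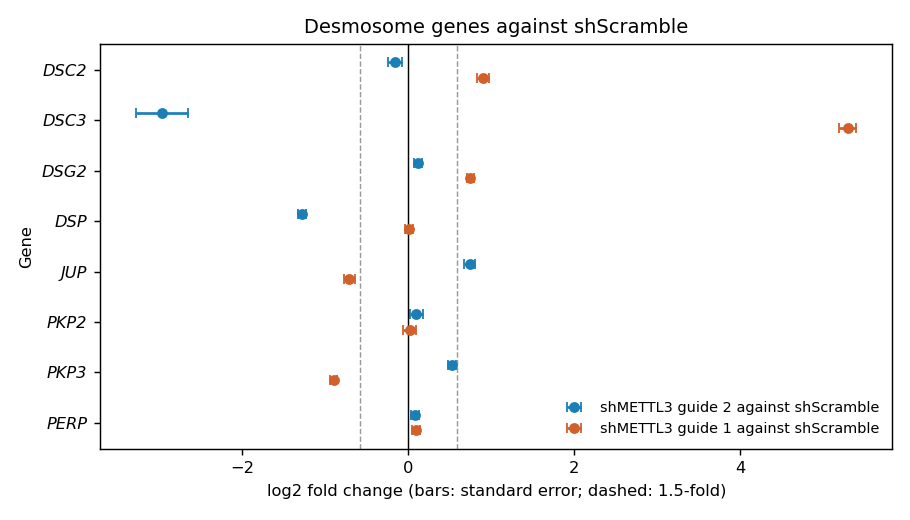
log2 fold change against shScramble (x axis) of the 8 tested desmosome genes (y axis) with guide 2 (blue) and in the libraries labelled guide 1 (orange); bars are standard errors and dashed lines mark 1.5-fold. DSC3 lies at -2.97 and 5.30, DSP at -1.28 and 0.01, and JUP at 0.74 and -0.71.

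DSC3 is a desmocollin (ENSG00000134762, GRCh38, chr18:30990008-31042815, minus strand). It was low in shScramble, nearly absent with guide 2 and abundant in the libraries labelled guide 1. Its counts were 41, 46 and 30 in shScramble, 2, 6 and 4 with guide 2, and 1538, 1434 and 1689 in the libraries labelled guide 1. The groups did not overlap, and the spread within each was small beside the distance between them. The means were 1.36 ± 0.0719 CPM, 0.169 ± 0.077 CPM and 54.0 ± 2.44 CPM (SD, n = 3). The log2 fold change was -2.97 (SE 0.311) with guide 2 and 5.30 (SE 0.104) in the libraries labelled guide 1, the latter a 39.4-fold higher level. The guide 2 value rests on 12 counts in all, and leaving out each library in turn gave log2 values between -3.32 and -2.66.

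DSC2, the desmocollin of simple epithelia (ENSG00000134755, chr18:31058840-31102415, minus strand), is the neighbour of DSC3 on the same strand. It had 15.2, 14.1 and 15.6 CPM in shScramble, 13.9, 13.2 and 13.1 CPM with guide 2, and 27.9, 29.0 and 26.6 CPM in the libraries labelled guide 1. All 3 libraries labelled guide 1 were above the others, and the guide 2 libraries were just below shScramble. DSC2 rose by 0.90 on the log2 scale in the libraries labelled guide 1 (SE 0.0733, edgeR adjusted p = 1.32e-11), and the change with guide 2 did not pass the test (log2 fold change -0.16, SE 0.0804, edgeR adjusted p = 0.0927).

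DSG2 is the desmoglein of simple epithelia (ENSG00000046604, chr18:31498043-31549008, plus strand). It had 120.0, 127 and 121 CPM in shScramble, 132, 131 and 138 CPM with guide 2, and 205, 205 and 211 CPM in the libraries labelled guide 1. The libraries labelled guide 1 were again above all others. DSG2 rose by 0.75 on the log2 scale there (SE 0.0442, edgeR adjusted p = 1.04e-14). With guide 2 it was 0.12 (SE 0.0447, edgeR adjusted p = 0.0212), under the fold limit, and scaling by library size alone turned this value to -0.03. The antisense gene DSG2-AS1 shares 171 exon bases with DSG2 and held at most 11 counts in any library.

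DSG3, a desmoglein of stratified epithelium and an antigen of pemphigus (ENSG00000134757, chr18:31447795-31478702, plus strand), had 0 counts in 8 of 9 libraries and 2 counts in 1 library labelled guide 1. A count of 0 allows up to 3 counts, which corresponds to 0.0942 to 0.136 CPM in these libraries, so DSG3 was not detectable at this depth and was not tested.

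On the TPM scale DSG2 held most of the desmosomal cadherin RNA in every library. The summed level of the 7 desmosomal cadherin genes (DSC1 to DSC3 and DSG1 to DSG4) was 70.9 to 73.3 TPM in shScramble, 69.4 to 74.5 TPM with guide 2 and 149 to 156 TPM in the libraries labelled guide 1. DSG2 made up 93.2% ± 0.39, 95.0% ± 0.332 and 77.0% ± 0.206 of it (SD, n = 3). DSC3 made up 0.902%, 0.931% and 0.885% in the shScramble libraries, 0.0545%, 0.152% and 0.11% with guide 2, and 17.8%, 17.1% and 18% in the libraries labelled guide 1. DSC2 held 5.68% ± 0.424, 4.76% ± 0.231 and 5.18% ± 0.322. DSC3 was therefore below DSC2 in shScramble and with guide 2 and above it in the libraries labelled guide 1.

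**Figure D2:**
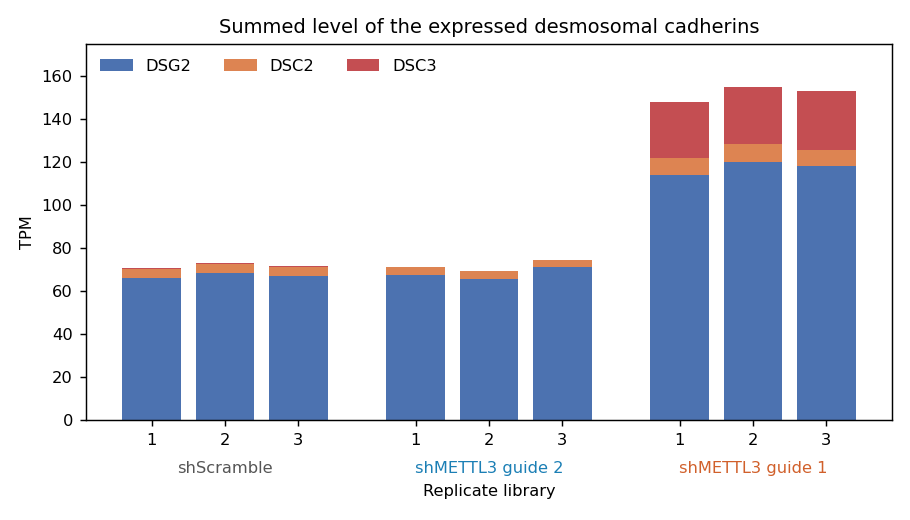
Stacked TPM (y axis, from 0) of DSG2, DSC2 and DSC3 in each library (x axis), grouped by hairpin. The summed bar is about as high in shScramble as with guide 2 and higher in the libraries labelled guide 1, where DSC3 becomes visible. With DSC1, DSG1, DSG3 and DSG4 added, which are not drawn, the sums were 70.9 to 73.3, 69.4 to 74.5 and 149 to 156 TPM.

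The promoters of the 3 expressed cadherin genes are shown because they lie within the same locus and differ in their response. Each is 300 bases from RefSeq (GRCh38.p14), 250 before and 50 after the start site on the gene's strand, with the E-box letters CAGGTG or CACCTG in capitals, a motif known to be bound by ZEB and SNAI repressors.
DSC3 (chr18:31042693-31042992): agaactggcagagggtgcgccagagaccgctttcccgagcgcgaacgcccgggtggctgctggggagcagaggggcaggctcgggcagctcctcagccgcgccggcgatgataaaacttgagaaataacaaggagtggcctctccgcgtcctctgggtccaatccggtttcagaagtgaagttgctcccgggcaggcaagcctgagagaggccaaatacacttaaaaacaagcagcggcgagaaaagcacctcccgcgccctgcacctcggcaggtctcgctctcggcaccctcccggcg
DSC2 (chr18:31102372-31102671): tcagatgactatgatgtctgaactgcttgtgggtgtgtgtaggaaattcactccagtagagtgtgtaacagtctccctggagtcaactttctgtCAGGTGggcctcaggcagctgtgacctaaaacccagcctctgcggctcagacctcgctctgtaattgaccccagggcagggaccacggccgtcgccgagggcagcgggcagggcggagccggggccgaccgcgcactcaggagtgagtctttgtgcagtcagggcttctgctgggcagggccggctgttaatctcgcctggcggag
DSG2 (chr18:31497927-31498226): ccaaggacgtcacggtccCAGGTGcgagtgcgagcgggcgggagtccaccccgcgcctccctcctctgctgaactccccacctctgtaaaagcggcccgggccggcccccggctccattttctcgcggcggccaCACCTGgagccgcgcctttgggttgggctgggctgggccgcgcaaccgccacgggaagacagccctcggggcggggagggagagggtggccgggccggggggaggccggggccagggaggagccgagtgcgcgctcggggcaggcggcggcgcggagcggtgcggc
The DSC3 window held 0 E-boxes, DSC2 held 1 (first base at -156 from the start site) and DSG2 held 2 (at -232 and -116). Among 35116 RefSeq promoters of this length, 20.6% held at least 1. Other motifs were searched on both strands and their shares of all promoters were 45% for GGGCGG (the GC box), 11.5% for TATAAA (the TATA box), 34.6% for the CCAAT box and 0.1% for AACCGGTT (the motif of GRHL factors). The DSC3 window held 1 CCAAT box (at -92) and no match of the others. The TATA box and GRHL letters were in none of the 8 desmosome promoters searched. The GC content was 63.3% for DSC3, 60.7% for DSC2 and 76.7% for DSG2, beside a median of 58.7% (quartiles 47.0% and 68.0%) over all promoters. A match is a description of letters and not a bound site. Promoters were found for 8 of the 10 genes, without PKP2 and PKP3. DSC2 and JUP had 2 promoter entries each, and only the first of each was searched.

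DSP, the plakin that links the desmosome to keratin (ENSG00000096696, chr6:7541575-7586717, plus strand), was lowered with guide 2 and near the shScramble level in the libraries labelled guide 1. It had 209, 199 and 212 CPM in shScramble, 87.1, 87.0 and 81.2 CPM with guide 2, and 193, 226 and 206 CPM in the libraries labelled guide 1. Every guide 2 library was below all others, and the remaining groups overlapped. DSP fell by 1.28 on the log2 scale with guide 2 (SE 0.0529, 2.42-fold, edgeR adjusted p = 3.09e-17). The log2 fold change was 0.01 in the libraries labelled guide 1 (SE 0.0506, edgeR adjusted p = 0.813). Apart from DSC3, DSP was the only tested desmosome gene lowered past both limits with guide 2.

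The DSP promoter is shown as that of the desmosome gene with the lowest log2 fold change with guide 2 apart from DSC3, and the JUP promoter as that of the gene with the highest, with the same capitals.
DSP (chr6:7541421-7541720): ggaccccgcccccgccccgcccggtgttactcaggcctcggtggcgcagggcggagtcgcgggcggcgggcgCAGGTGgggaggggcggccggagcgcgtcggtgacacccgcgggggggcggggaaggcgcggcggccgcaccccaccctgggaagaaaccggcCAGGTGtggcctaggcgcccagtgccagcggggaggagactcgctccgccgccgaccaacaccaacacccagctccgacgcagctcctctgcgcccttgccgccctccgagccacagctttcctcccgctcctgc
JUP (chr17:41786662-41786961): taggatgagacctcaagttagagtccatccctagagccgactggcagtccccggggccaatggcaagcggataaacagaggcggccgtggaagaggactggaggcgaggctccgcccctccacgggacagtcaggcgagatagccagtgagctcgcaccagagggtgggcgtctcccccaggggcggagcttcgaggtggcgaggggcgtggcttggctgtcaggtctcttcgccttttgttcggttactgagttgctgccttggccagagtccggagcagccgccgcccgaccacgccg
The DSP window held 2 E-boxes (at -178 and -85) and 8 GC boxes, with a GC content of 77.0%. The JUP window held 0 E-boxes, 3 GC boxes and 1 CCAAT (at -194), with a GC content of 65.3%.

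JUP encodes plakoglobin, an armadillo protein shared by desmosomes and adherens junctions (ENSG00000173801, chr17:41754604-41786931, minus strand). It had 294, 291 and 266 CPM in shScramble, 466, 449 and 505 CPM with guide 2, and 153, 179 and 190.0 CPM in the libraries labelled guide 1. The 3 groups did not overlap, with guide 2 highest and guide 1 lowest. JUP rose by 0.74 on the log2 scale with guide 2 (SE 0.0678, edgeR adjusted p = 5.44e-08) and fell by 0.71 in the libraries labelled guide 1 (SE 0.0685, edgeR adjusted p = 6.3e-08). Scaled by library size alone, the guide 2 value was 0.58, at the fold limit.

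PKP3, the plakophilin that binds the widest set of desmosomal proteins (ENSG00000184363, chr11:392614-404908, plus strand), followed the same order. It had 164, 162 and 153 CPM in shScramble, 231, 226 and 238 CPM with guide 2, and 82.9, 85.0 and 89.0 CPM in the libraries labelled guide 1. The groups did not overlap. PKP3 fell by 0.90 on the log2 scale in the libraries labelled guide 1 (SE 0.0464, edgeR adjusted p = 5.67e-16). With guide 2 the log2 fold change was 0.53 (SE 0.0451, edgeR adjusted p = 6.86e-11), which is below 1.5-fold, so the gene was not called.

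PKP2, the plakophilin of simple epithelia and heart (ENSG00000057294, chr12:32790745-32896840, minus strand), had 14.9 to 16.4 CPM in shScramble, 16 to 18.3 CPM with guide 2 and 15.3 to 16.6 CPM in the libraries labelled guide 1. The groups overlapped. The log2 fold change was 0.10 (SE 0.0816, edgeR adjusted p = 0.269) with guide 2 and 0.02 (SE 0.0804, edgeR adjusted p = 0.851) in the libraries labelled guide 1. PKP1, the plakophilin of stratified epithelium (ENSG00000081277, chr1:201283452-201332993, plus strand), had 1 count in 1 guide 2 library and 0 in the other 8, and was not tested. Of the summed plakophilin TPM, PKP3 held 95.0% ± 0.118 in shScramble, 96.2% ± 0.165 with guide 2 and 90.9% ± 0.565 in the libraries labelled guide 1 (SD, n = 3), and PKP2 held 5.02%, 3.79% and 9.12%. The rise in the PKP2 share thus accompanied a fall of the plakophilin sum, from 145 to 155 TPM in shScramble to 83.4 to 90.1 TPM, at a PKP2 level of 7.55 and 7.97 TPM.

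PERP, a small membrane protein of desmosomes and a target gene of p53 (ENSG00000112378, chr6:138088505-138107511, minus strand), had 88.7 to 93.0 CPM in shScramble, 94.0 to 97.9 CPM with guide 2 and 89.8 to 101 CPM in the libraries labelled guide 1. The groups of PERP were close, with a log2 fold change of 0.08 (SE 0.0497, edgeR adjusted p = 0.154) with guide 2 and of 0.09 (SE 0.0493, edgeR adjusted p = 0.103) in the libraries labelled guide 1. Scaled by library size alone, the guide 2 values of PERP and PKP2 were -0.07 and -0.05.

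In shScramble the order of mean TPM was JUP (194), PKP3 (143), PERP (71.8), DSP (69.2), DSG2 (67.1), PKP2 (7.55), DSC2 (4.09) and DSC3 (0.653). The libraries of PERP and DSP overlapped, as did those of DSP and DSG2, and the other neighbours in this order did not. With guide 2 JUP (302) and PKP3 (193) led, PERP (70.9) and DSG2 (68.2) overlapped, and DSP (26.6) was placed below DSG2. In the libraries labelled guide 1, JUP (124) and DSG2 (118) overlapped at the top, PKP3 (79.5), PERP (79.4) and DSP (72.7) overlapped in the middle, and DSC3 (26.9) was above PKP2 (7.97) and DSC2 (7.92).

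**Figure D3:**
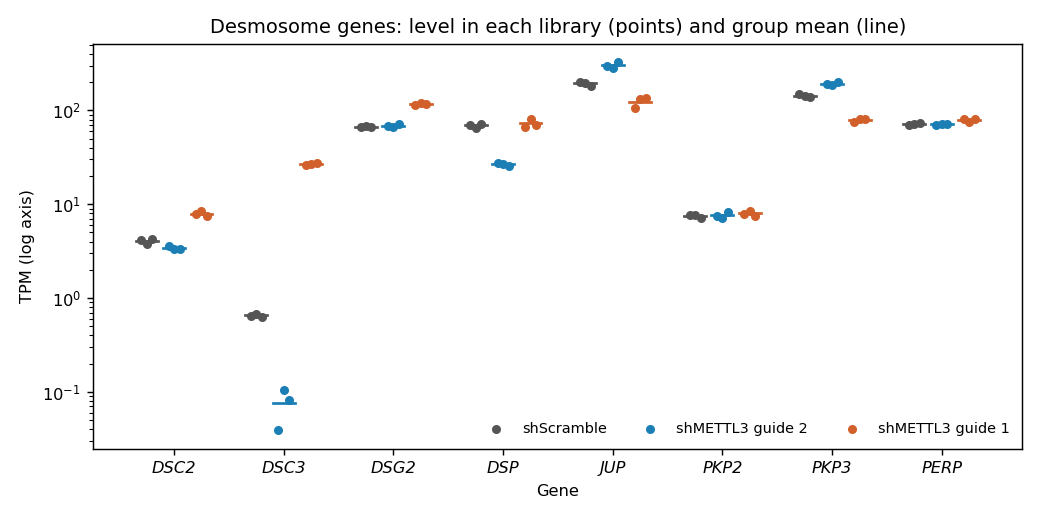
TPM (y axis, log scale) of the 8 tested desmosome genes (x axis) in each of the 9 libraries (points) with the group mean (line). JUP and PKP3 are highest with guide 2 and lowest in the libraries labelled guide 1, DSP is lowest with guide 2, and DSC3 spans group means from 0.0755 to 26.9 TPM.

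Between the guides, the contrast that chose the set, the log2 difference of guide 2 minus guide 1 was -8.27 for DSC3 (SE 0.153), -1.06 for DSC2, -0.63 for DSG2, -1.29 for DSP, 1.44 for JUP, 1.43 for PKP3, 0.09 for PKP2 and -0.01 for PERP. Past both limits were 6 of the 8 tested genes (5 of 7 without DSC3) and 47.3% of all tested genes. Nothing is read from this count, since DSC3 was selected on this contrast, and no p-value is given for a gene here.

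The desmosomal cadherin genes lie side by side on chromosome 18, and the genes within 1000000 bases of the cluster (chr18:29990008-32549008) were examined. Of 53 annotated genes, 14 were tested, including DSC2, DSC3 and DSG2. Of the 11 others, 8 rose and 1 fell in the libraries labelled guide 1, with a median log2 fold change of 0.81. Over all tested genes, 21.2% were raised and 16.5% lowered there. The largest rise was that of RNF138, a ubiquitin ligase (log2 fold change 1.99, SE 0.0545, edgeR adjusted p = 4.88e-22), with 39.4 ± 2.81 CPM in shScramble and 156 ± 8.22 CPM in the libraries labelled guide 1 (SD, n = 3). RNF125, another ubiquitin ligase, rose by 1.26, B4GALT6, a glycosyltransferase of lactosylceramide synthesis, by 1.16, TRAPPC8, a subunit of a membrane trafficking complex, by 0.67 and GAREM1, an adaptor of growth factor signalling, by 0.62 on the log2 scale. The other raised genes were ENSG00000259985 (1.28), ENSG00000263393 (1.32) and the pseudogene HNRNPA1P7 (0.81). ENSG00000263393 had 8, 4 and 6 counts in shScramble and 11, 21 and 14 in the libraries labelled guide 1. It passed the filter on low counts only through the latter, so nothing is read from its call. ENSG00000259985 overlaps the start of B4GALT6 on the opposite strand, ENSG00000263393 overlaps RNF138 on the opposite strand, and HNRNPA1P7 is a near copy of another gene, so their reads are uncertain. GAREM1 also overlaps an end of RNF138 on the opposite strand. The exon bases they share were not counted, so the GAREM1 reads are less certain too. TTR, the transthyretin gene, was lowered, with 11, 6 and 2 counts in shScramble and 1, 0 and 1 in the libraries labelled guide 1, which is within the limit of 3 counts. LRRC37A7P (0.15) and ENSG00000263823 (0.02) were not called there. The call of HNRNPA1P7 was lost without shScramble replicate 1 or 2 or guide 1 replicate 3, that of ENSG00000263393 with DESeq2 and without shScramble replicate 2 or guide 1 replicate 2, and that of GAREM1 (0.58) without guide 1 replicate 1.

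With guide 2, 3 of these 11 genes were raised by edgeR, beside 8.85% of all tested genes. By edgeR or DESeq2, 0 of the 11 were lowered (20.4% of all tested genes by edgeR), and their median was 0.06. The 2 lower at an unadjusted p under 0.05, TRAPPC8 (edgeR adjusted p = 0.00334) and RNF125 (edgeR adjusted p = 0.0167), missed only the fold limit. The raised genes were TTR (11, 13 and 13 counts), LRRC37A7P (log2 fold change 1.18) and HNRNPA1P7 (1.13), all low in counts. TTR passed the filter on low counts only through the guide 2 libraries, so nothing is read from its calls in either comparison. The TTR call was lost in 8 of the 15 alternatives that fitted it, namely DESeq2, library size alone, no filter, and without shScramble replicate 2 or 3 or any guide 2 library (edgeR and DESeq2 adjusted p from 0.016 to 0.134). RNF138 (-0.05), B4GALT6 (0.19), TRAPPC8 (-0.20), RNF125 (-0.22) and GAREM1 (0.06) were not called.

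Bins of 5 Mb over the whole of chromosome 18, the cadherin locus included, were added after the locus had been seen. The bin of 30 to 35 Mb holds all 14 tested genes of the locus, DSC3 among them, so its count largely repeats that of the locus. In the libraries labelled guide 1, 16 of 19 tested genes were raised between 30 and 35 Mb (median log2 fold change 1.26) and 4 of 8 between 25 and 30 Mb (median 1.01). The next bins had 9 of 22 raised at 20 to 25 Mb (median 0.45) and 11 of 25 at 35 to 40 Mb (median 0.49). Other bins went the opposite way, with 4 of 6 genes lowered at 40 to 45 Mb (median -0.82), 8 of 13 at 70 to 75 Mb (median -0.72) and 9 of 25 at 75 to 80 Mb (median -0.61). Over the whole chromosome 86 of 284 tested genes (30.3%) were raised and 50 lowered, with a median of 0.00. With guide 2, 26 of 284 (9.15%) were raised and 47 lowered. Genes that passed the filter on low counts through a single group were not set apart in these counts. What the raised genes between 25 and 35 Mb share besides position was not tested.

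**Figure D4:**
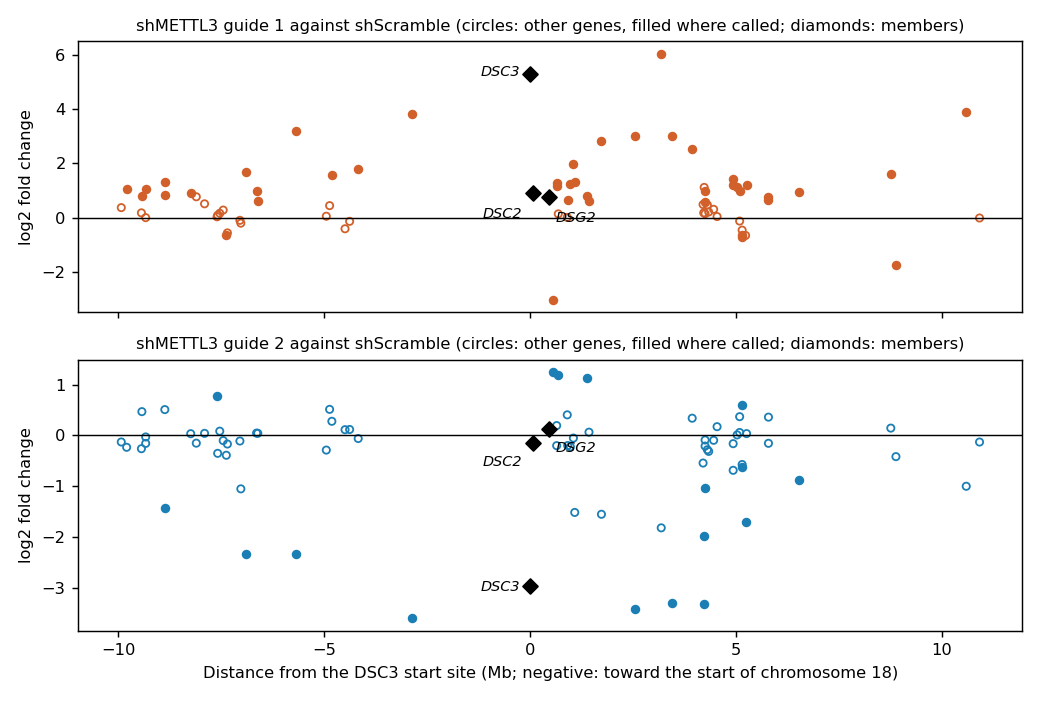
log2 fold change against shScramble (y axis) of tested genes around the DSC3 start site (x axis, Mb) in the libraries labelled guide 1 (top) and with guide 2 (bottom); circles are other genes, filled where called, and diamonds are DSC3, DSC2 and DSG2. In the top panel most genes on either side of DSC3 lie above 0, and in the bottom panel DSC3 lies at -2.97 while most genes within 1 Mb lie near 0.

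Genes of the same and neighbouring junctions were compared by lists. Beside the counts of each list, 8.85% of all tested genes were raised and 20.4% lowered with guide 2. In the libraries labelled guide 1 these shares were 21.2% and 16.5%. Of the other desmosomal isoforms and plakins, 5 of 9 were tested. With guide 2, 0 were called by edgeR or by DESeq2 (median log2 fold change 0.20). At an unadjusted p under 0.05 there were 3 higher, among them PPL (0.30), and 1 lower, DST (-0.31). PPL (edgeR adjusted p = 0.00136) and DST (edgeR adjusted p = 0.00037) missed only the fold limit. In the libraries labelled guide 1, 1 was raised and 2 were lowered (median -0.31), namely DST (dystonin, the hemidesmosomal plakin, log2 fold change 1.35), EVPL (envoplakin, -1.0) and PPL (periplakin, -0.80).

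Of the adherens junction genes, 11 of 13 were tested, with 3 raised and 2 lowered with guide 2 (median 0.30) and 2 raised against 3 that fell in the libraries labelled guide 1 (median -0.36). CDH2 (N-cadherin) had 71, 78 and 62 counts in shScramble, 5, 5 and 4 with guide 2, and 979, 1000 and 1042 in the libraries labelled guide 1. These groups did not overlap, in the same order as for DSC3. CDH2 also lies on chromosome 18, its start -2.87 Mb from that of DSC3 and within the bin of 25 to 30 Mb described above. CDH2 fell by 3.60 with guide 2 (SE 0.257, edgeR adjusted p = 2.21e-12) and rose by 3.83 in the libraries labelled guide 1 (SE 0.099, edgeR adjusted p = 1.4e-22). CDH3 (P-cadherin) had log2 fold changes of 1.05 and -1.06, and AFDN (afadin, which links nectins to actin) -0.61 and 1.23, all called. CDH1 (E-cadherin) fell by 0.77 in the libraries labelled guide 1, and with guide 2 its value was -0.16, under the fold limit.

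Tight junction genes were mostly lowered in the libraries labelled guide 1, where 10 of 15 tested genes fell and 1 rose (median -0.66). The lowered genes included CLDN7 (-1.01), CLDN4 (-0.81) and TJP3 (-0.98), and the raised gene was PARD3 (1.80), a polarity scaffold. With guide 2, 0 were raised by edgeR or DESeq2 and 1 was lowered (median 0.13). At an unadjusted p under 0.05, 8 were higher, all under the fold limit, among them CLDN4 (0.19, edgeR adjusted p = 0.000491). Of the keratins, the filaments that desmosomes anchor, 4 of 11 were tested and 3 were lowered in the libraries labelled guide 1 (KRT80 -1.49, KRT8 -0.92 and KRT18 -0.78), while with guide 2 KRT80 alone was lowered (-0.79).

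Epithelial transcription factors and splicing regulators had 8 of 11 tested genes that fell and 1 that rose in the libraries labelled guide 1 (median -0.92), including the splicing regulators ESRP1 (-1.01) and ESRP2 (-1.21) and the factor ELF3 (-1.06). With guide 2, 2 were lowered, KLF4 (-1.96) and ELF3 (-0.94), and 0 were raised by edgeR or DESeq2 (median -0.18). At an unadjusted p under 0.05, 3 were higher, all under the fold limit. Of the mesenchymal factors and markers 7 of 7 were tested. With guide 2, 5 were lowered and 1 raised (median -2.70), and in the libraries labelled guide 1, 5 were raised and 0 lowered by edgeR or DESeq2, with 0 lower at an unadjusted p under 0.05 (median 2.95). TWIST1 is in both counts of 5, with 19, 9 and 6 counts in shScramble and 227, 178 and 195 in the libraries labelled guide 1. It passed the filter on low counts only through the latter, so nothing is read from its calls. ZEB1, a repressor of epithelial genes, had log2 fold changes of -3.07 and 3.33, SNAI2 -2.03 and 2.95, and VIM (vimentin) -2.70 and 2.72. The guide 2 value of ZEB1 rests on 3, 10 and 4 counts. SNAI1 was the gene raised with guide 2 (1.17), and its value of -0.33 in the libraries labelled guide 1 was not called. ZEB2 had 75, 72 and 63 counts in shScramble, 0, 1 and 4 with guide 2, and 634, 538 and 612 in the libraries labelled guide 1, where its log2 fold change was 3.07.

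**Figure D5:**
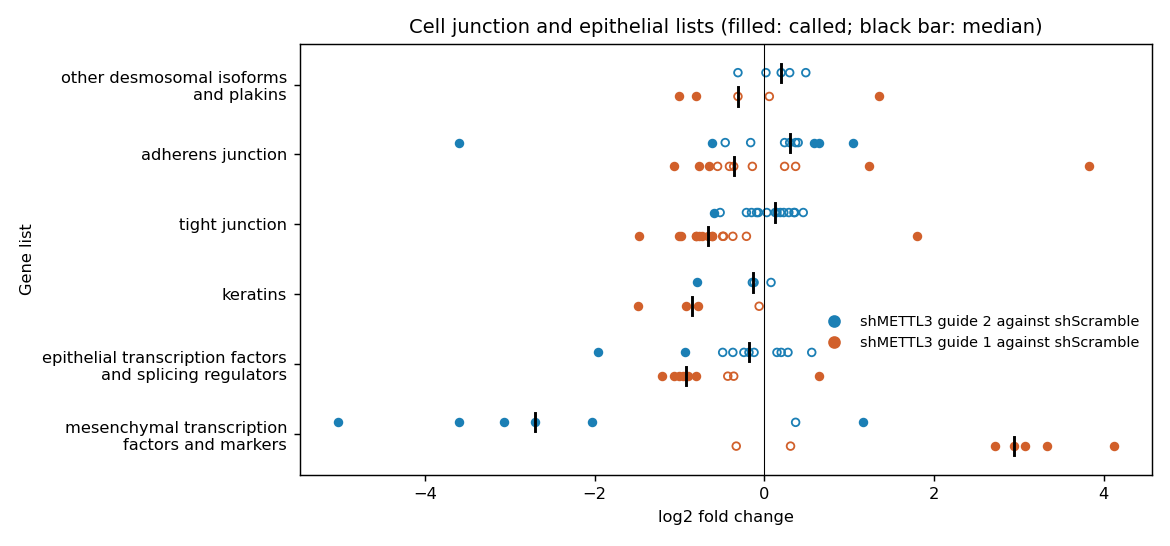
log2 fold change against shScramble (x axis) of the tested genes of 6 lists (y axis) with guide 2 (blue) and in the libraries labelled guide 1 (orange); filled points are called and black bars are medians. The mesenchymal list lies at medians of -2.70 and 2.95, and the tight junction list at 0.13 and -0.66.

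The genes whose fold changes were most like those of DSC3, by Euclidean distance over both log2 fold changes among 15422 genes averaging 1 CPM or more, were ALDH1L2 (distance 0.481), NEFL (0.561), ADGRL3 (0.737), UCP2 (0.837) and MAP7D2 (0.892). This likeness rests on 3 conditions. ALDH1L2, a mitochondrial folate enzyme, had 6.69, 0.983 and 196 CPM in shScramble, guide 2 and guide 1, and UCP2, a mitochondrial carrier, had 1.18, 0.171 and 27.0 CPM. ADGRL3 had 0, 2 and 0 counts with guide 2, within the limit of 3 counts. The guide 2 counts were also few for UCP2 (7, 3 and 2), NEFL (4, 3 and 6) and MAP7D2 (8, 1 and 4).

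Markers were checked beside these results. The 12 prostate luminal markers were all detected, and their summed level was 3100.0 to 3160.0 CPM in shScramble, 3570.0 to 3710.0 CPM with guide 2 and 1600.0 to 1660.0 CPM in the libraries labelled guide 1, where 6 of 12 were lowered. Of the 10 basal or squamous markers, 9, 8 and 9 were within the limit of 3 counts in these groups, among them KRT5, KRT14 and TP63, and the summed level was 0.194 to 0.408, 0.607 to 0.638 and 0.144 to 0.316 CPM. The 7 stromal markers summed to 44.1 to 47.4, 37.8 to 41.3 and 21.9 to 29.6 CPM, with DCN and LUM at the limit in every group. The 5 blood cell markers summed to at most 1.97 CPM in any library, with PTPRC and CD3E at the limit. The part of the luminal and stromal differences in the desmosome results was not tested.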

How the data were processed

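The authors aligned trimmed reads to GRCh38 (STAR) and deposited raw featureCounts counts per gene for each of 9 libraries, with the exon length of each gene in a further column. The strand setting and the treatment of multi-mapping reads are not given in the sources used here. Gene coordinates are those of the deposited files, and symbols, transcripts and hairpin matches come from GENCODE on the same build (56558 of 60675 genes, 93.2%, had a symbol). Promoters are from RefSeq.

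Counts were tested in R 4.3.3 with edgeR 4.0.16 (TMM, filterByExpr with a minimum count of 10 and a minimum total of 15, robust quasi-likelihood F test, all 9 libraries, no covariates). Adjusted p-values are Benjamini-Hochberg values over the 19278 genes tested. A call needed an adjusted p under 0.05 together with a 1.5-fold or larger change. TPM was computed from the counts and the deposited lengths. Intervals and limits for a count of 0 cover counting error only. Alternatives were DESeq2 1.42.0, other scalings, filters and subsets of libraries, a replicate block, and raw counts in place of TPM.

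Named genes were the 10 desmosome genes, METTL3, tested genes of the cadherin locus, at most 4 genes per list (called in at least 1 comparison, mean of at least 5 CPM, largest change) and the 5 genes nearest to DSC3. The genes and lists were chosen with earlier results of these data known.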

Additional observations from a re-analysis of the deposited data

Results flagged for a closer look

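The 4 following desmosome genes lay on opposite sides of shScramble with the 2 hairpins, in every library. DSC3 and DSC2 were below all shScramble libraries in the 3 guide 2 libraries and above them in the 3 libraries labelled guide 1, with a log2 difference of guide 2 minus guide 1 of -8.27 for DSC3 and -1.06 for DSC2. JUP and PKP3 had the opposite order, with differences of 1.44 and 1.43. All 4 were past both limits in that contrast, as were 47.3% of all tested genes. The set was chosen by this contrast, so these differences are a description with no p-value. Whether they hold in other libraries was not tested. The share of all tested genes with such an order was not counted, so nothing is read from the number of desmosome genes that had it. With guide 2, DSC2 did not pass the test (log2 fold change -0.16, edgeR adjusted p = 0.0927), and PKP3 (0.53) was under the fold limit. Both hairpins are compared with the same shScramble libraries.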

How the results depend on the processing

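The counts of called desmosome genes (3 with guide 2, 5 in the libraries labelled guide 1, and 6 past both limits between the guides) were the same with DESeq2, with its size factors in edgeR, with scaling by library size alone, with no filter or a filter at a mean of 1 CPM, with 6 libraries in the fit, and without each library in turn. At an adjusted p under 0.05 without the fold limit, the guide 2 counts rose to 5 desmosome genes, to 7 genes of the cadherin locus (from 4) and to 43 genes of the context lists (from 15). With raw counts in place of TPM, DSC3 made up 0.977% of the cadherin sum in shScramble and 18.7% in the libraries labelled guide 1, and PKP3 made up 91.1%, 93.2% and 84.3% of the plakophilin sum in shScramble, guide 2 and guide 1. Of the 3 locus genes raised with guide 2 besides the cadherins, TTR lost its call in 8 of 15 alternatives. Library size alone moved the median of all genes with guide 2 from -0.04 to -0.19 and the raised share of called genes from 30.2% to 17.2%.

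Replicate numbers in the titles did not pair the libraries (correlations of deviations between same-numbered libraries from -0.0981 to 0.0529 over 9 pairs). With the replicate block the counts of desmosome genes stayed 3, 5 and 6, and 5494, 7140 and 9027 genes were called in the 3 comparisons. Depth limits DSG3, PKP1 and the guide 2 level of DSC3, which rest on few counts.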

Other observations

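Non-coding and silent genes of the cadherin cluster were near the detection limit. DSC1 had 7, 7 and 3 counts in shScramble, 6, 3 and 0 with guide 2, and 2, 6 and 10 in the libraries labelled guide 1. The antisense gene DSCAS, which overlaps DSC2 and DSC1, had 7, 0 and 5, then 1, 0 and 2, then 11, 3 and 8 counts. DSG1 and DSG4, desmogleins of skin and hair, held at most 2 counts in any library. ENSG00000263698, which lies within DSC1 on the opposite strand, had 0 counts in the shScramble and guide 2 libraries and 1, 5 and 5 in the libraries labelled guide 1.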
